A study of Mus musculus with 2 samples.

Results

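The genes described here are type I interferon-stimulated genes, a set of 42 mouse genes named by symbol from knowledge of the interferon response. Of these, 40 were in the gene table with at least 50 unique molecular identifiers (UMIs, 1 per captured RNA molecule) over both libraries, out of 14172 genes that reached this level. Mx1 and Mx2 are not analysed here. The 40 genes were measured in 5 sets of cells, each chosen by a gate, a rule on the raw UMIs of a few marker genes.

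The data are 2 single-cell RNA libraries of mouse tumour tissue, 1 from a group given cepharanthine (CEP), a plant alkaloid, and 1 from a group given vehicle (Vehicle, spelled "Vehide" in its title). Tumours were dissociated with enzymes and enriched for CD45, the surface protein of leukocytes, and RNA was counted from its 3' end. The series title sets the compound in the context of immunogenic cell death and immunotherapy of solid tumours. The design states 5 biological replicates per group, but cells cannot be assigned to animals from the labels, so each group is 1 library. The sources used here do not give strain, age, tumour model, dose, route or schedule, and the labels name no altered gene in either group.

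Type I interferons (interferon beta and the interferon alphas) bind a receptor made of Ifnar1 and Ifnar2, which signals through the kinases Jak1 and Tyk2 to a transcription factor complex that includes Irf9. The complex binds the interferon-stimulated response element in promoters, and the induced genes encode proteins that bind viral RNA, alter nucleotide pools, sense nucleic acids, and restrain the response itself. In tumours this programme is known from myeloid cells and dendritic cells that have taken up DNA of dying tumour cells. Many of the same genes also respond to interferon gamma and type III interferon, so membership in the set does not tell which interferon acted.

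The core of the response element was searched for in the members' promoters. The core searched was a pair of GAAA separated by any 2 bases, on either strand, in the RefSeq window of 300 bases around the start of transcription in build GRCm38.p6. Of the 40 genes, 33 had an entry in the promoter table. The core was found in 20 of them (60.6%), against 3.99% of the 27025 genes in the table. Of the 33, 8 held it at 2 or more positions in 1 window, against 0.266% of all genes, overlapping matches counted. A match is a description of these letters and was not tested as a binding site. Usp18, Oas2, Ifi27l2a, Dhx58, Zbp1, Rtp4 and Ifi204 had no entry. In the sequences below, written in the direction of transcription, capitals mark the core. They are shown because values of these genes are named in most gates and because Rsad2 and Cmpk2 are neighbours read in opposite directions from starts on chromosome 12.
Isg15 (chr4:156200769-156201068, minus strand): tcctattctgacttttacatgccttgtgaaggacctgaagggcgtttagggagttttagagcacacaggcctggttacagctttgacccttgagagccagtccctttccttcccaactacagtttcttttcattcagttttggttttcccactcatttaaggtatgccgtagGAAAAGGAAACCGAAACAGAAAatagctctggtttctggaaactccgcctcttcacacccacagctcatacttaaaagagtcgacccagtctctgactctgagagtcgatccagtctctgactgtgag
Ifit1 (chr19:34640639-34640938, plus strand): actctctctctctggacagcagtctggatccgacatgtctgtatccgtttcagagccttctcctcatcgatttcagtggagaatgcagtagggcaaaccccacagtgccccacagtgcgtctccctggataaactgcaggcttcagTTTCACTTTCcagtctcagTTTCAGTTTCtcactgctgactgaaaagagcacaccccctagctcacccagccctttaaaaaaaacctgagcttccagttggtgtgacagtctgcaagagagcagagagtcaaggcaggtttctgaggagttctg
Ifit3 (chr19:34583279-34583578, plus strand): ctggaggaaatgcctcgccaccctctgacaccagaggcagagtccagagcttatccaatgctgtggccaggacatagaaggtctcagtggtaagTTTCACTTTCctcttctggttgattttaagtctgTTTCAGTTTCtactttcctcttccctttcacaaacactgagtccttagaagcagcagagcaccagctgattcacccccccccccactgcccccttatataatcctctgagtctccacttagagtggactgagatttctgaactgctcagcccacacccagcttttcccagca
Rsad2 (chr12:26456403-26456702, minus strand): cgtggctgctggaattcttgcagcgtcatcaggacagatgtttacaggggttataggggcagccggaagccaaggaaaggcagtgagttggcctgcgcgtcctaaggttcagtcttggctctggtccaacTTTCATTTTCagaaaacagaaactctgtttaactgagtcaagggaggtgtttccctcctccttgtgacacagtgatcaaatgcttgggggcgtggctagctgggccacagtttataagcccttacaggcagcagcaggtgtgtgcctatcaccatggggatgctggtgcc
Cmpk2 (chr12:26468965-26469264, plus strand): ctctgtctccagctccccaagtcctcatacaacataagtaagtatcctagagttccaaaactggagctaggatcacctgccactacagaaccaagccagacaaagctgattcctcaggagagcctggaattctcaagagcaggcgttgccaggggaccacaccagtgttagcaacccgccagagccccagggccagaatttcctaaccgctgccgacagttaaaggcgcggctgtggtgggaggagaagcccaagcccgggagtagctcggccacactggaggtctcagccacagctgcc
In Isg15 the capitals span 3 overlapping cores, and Ifit1 and Ifit3 each hold 2 separate cores on the minus strand of the gene. Rsad2 holds 1 core and the Cmpk2 window holds none.

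**Figure D1:**
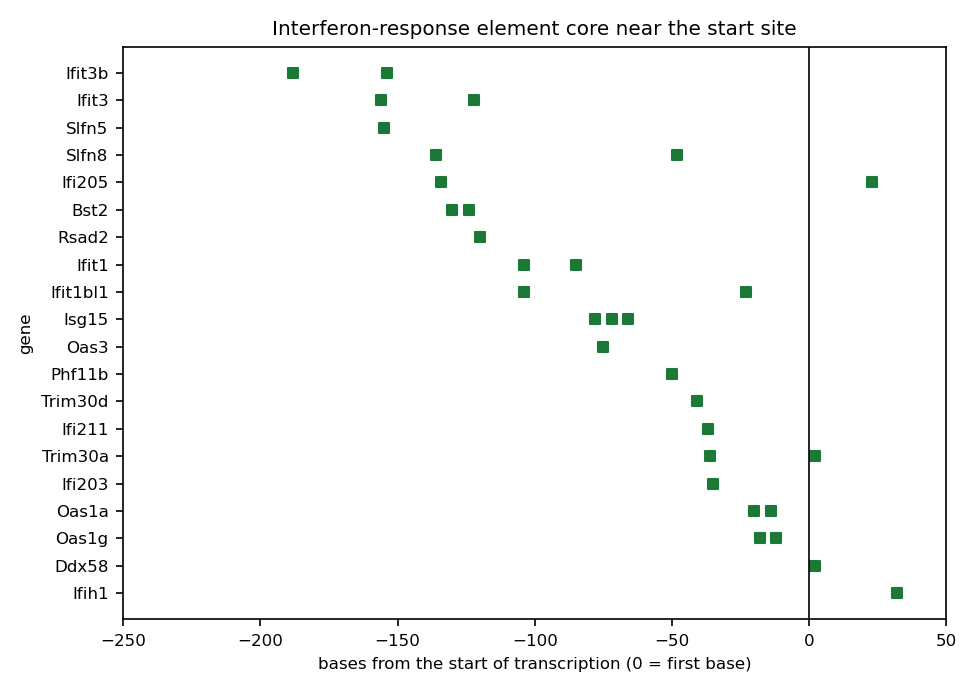
Positions of the interferon-response core (GAAA, any 2 bases, GAAA) in the 20 member promoters that hold it, in bases from the start of transcription (0 is the first transcribed base). Each square is the first base of 1 match on either strand, and most lie upstream of the start.

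The members lie in families of neighbouring genes. Ifit2, Ifit3, Ifit1bl1, Ifit3b and Ifit1 stand together on chromosome 19, 6 genes of the 2',5'-oligoadenylate synthetase family (Oas) on chromosome 5, 5 p200 genes (Ifi203, Ifi204, Ifi205, Ifi209, Ifi211) on chromosome 1, and 4 Schlafen genes among the 7 members on chromosome 11. Several are near copies of each other, such as Ifit3 with Ifit3b, Oas1a with Oas1g, Trim30a with Trim30d and the p200 and Schlafen genes. Reads that fit both copies may have been dropped or split before deposit, so their separate values are less certain than those of Isg15 or Rsad2.

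The CEP library held 9621 barcodes and 88721774 UMIs and the Vehicle library 9989 and 81208647, with median depths of 6621 and 6236 UMIs. After filters and removal of likely doublets, 8842 and 9154 cells were kept, and 117 kept barcodes were shared by both libraries. The macrophage gate (at least 10 UMIs of C1qa, C1qb and C1qc) held 4162 CEP and 4564 Vehicle cells. The neutrophil gate (Csf3r or Cxcr2, under 3 C1q UMIs) held 1652 and 2103 cells, the T cell gate (at least 2 Cd3 UMIs, under 3 C1q UMIs) 170 and 258, the dendritic gate (Flt3, under 10 C1q UMIs) 91 and 94, and the epithelial gate (at least 10 Krt8 and Krt18 UMIs, under 10 C1q UMIs) 780 and 111. Markers that the gates did not use were checked. The 7 macrophage markers summed to 16681 and 16727 UMIs per 1000000 UMIs of the gate (CPM) in CEP and Vehicle macrophages. Apoe gave 14976 and 15031 CPM of these sums, with Csf1r at 597 and 609 CPM and Adgre1 at 95.2 and 90.1 CPM. The 7 neutrophil markers summed to 108141 and 127539 CPM in neutrophils. The 8 dendritic markers summed to 2887 and 2604 CPM in the dendritic gate, and the 7 epithelial markers to 2453 and 3260 CPM in the epithelial gate. The T cell gate went partly against its label: its 7 T cell markers summed to 1544 and 1589 CPM, but the neutrophil markers stood at 30391 and 45429 CPM in it. Macrophage markers stood at 719 and 361 CPM in the T cell gate, fibroblast markers at 399 and 992 CPM and epithelial markers at 143 and 37.9 CPM. Red blood cell markers had at most 2 UMIs in any gate.

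With 1 library per group no test between conditions was possible. Values are CPM with exact Poisson 95% intervals, and ratios are log2 of CEP over Vehicle with exact conditional binomial intervals. Both cover counting error alone, not the spread between cells, animals or preparations. A gene with at least 50 UMIs in a gate over both libraries is called measured. It is called lower at a CPM ratio of 0.8 or less and higher at the inverse of that or more, a log2 limit of 0.32 in either direction. In each gate the percentage of all measured genes past the same limit is given as background.

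The neutrophil gate held the highest level of more members than any other gate in both libraries. By CPM, 19 of the 40 genes in CEP and 21 in Vehicle had their highest level in the neutrophil gate, and 31 had the same highest gate in both libraries. Isg15, a ubiquitin-like protein attached to other proteins, stood at 1705 CPM (7681 UMIs) in CEP and 2022 CPM (11295 UMIs) in Vehicle neutrophils, against 638 and 722 CPM in macrophages and 208 and 174 CPM in epithelial cells. Slfn4, a Schlafen protein of myeloid cells, was lower outside neutrophils, at 508 and 696 CPM in neutrophils and 10.8 and 7.25 CPM in macrophages. In the epithelial gate Slfn4 had 15 and 8 UMIs, although those cells were the deepest, with median depths of 26786 and 26694 UMIs. Bst2 (tetherin, which holds budding virus at the cell surface) was highest in the epithelial gate, at 728 and 738 CPM, Ifi27l2a, an interferon-induced membrane protein, in macrophages at 1362 and 1251 CPM, and the p200 gene Ifi205 in the dendritic gate at 156 and 195 CPM.

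**Figure D2:**
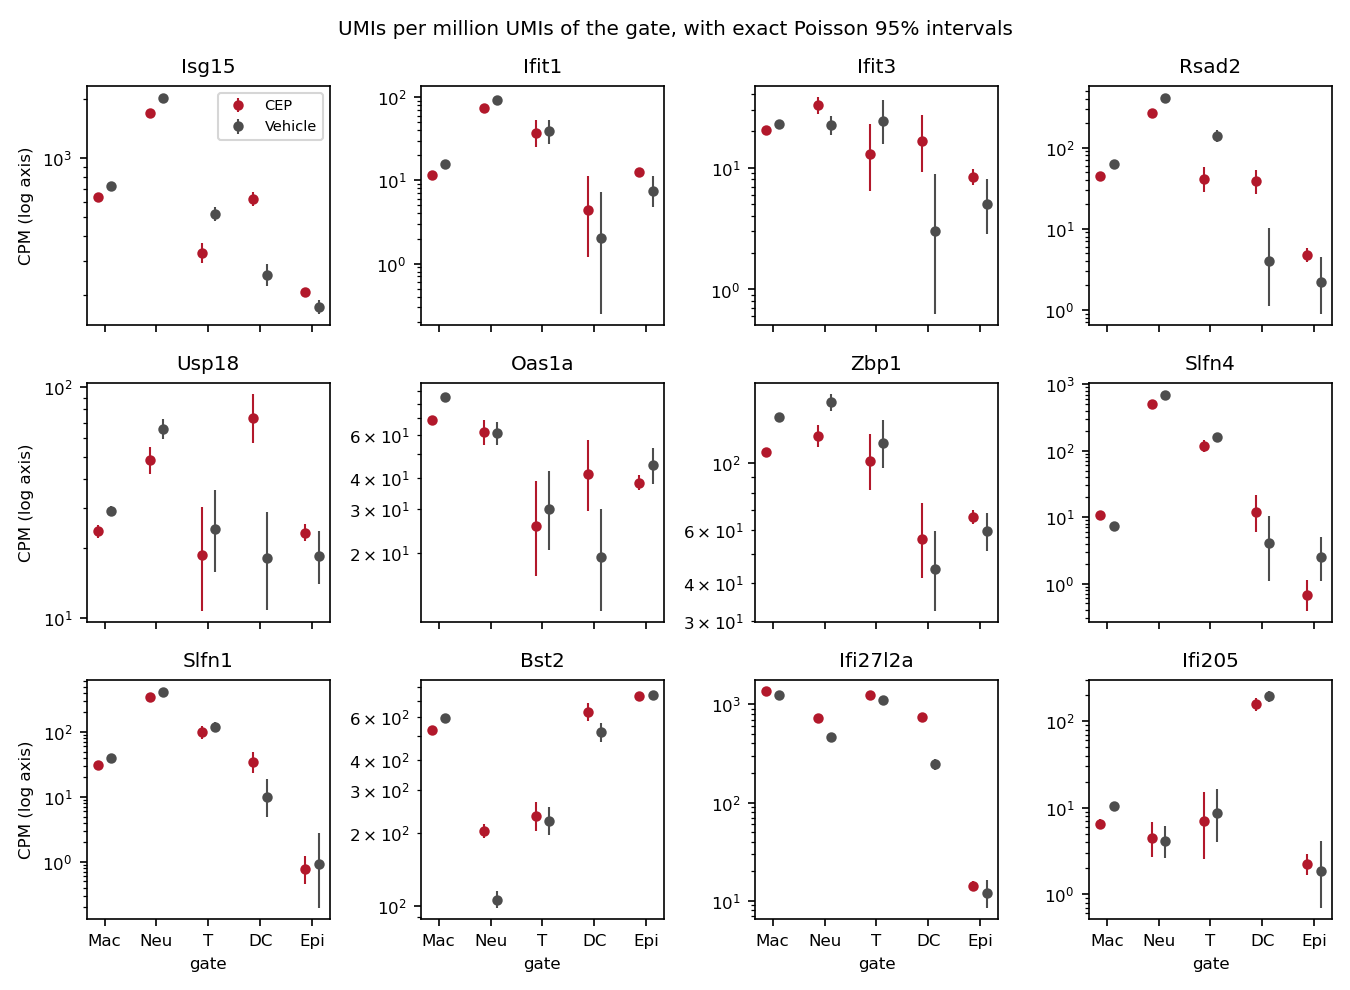
Level of 12 members in each gate (Mac, macrophage; Neu, neutrophil; T, T cell; DC, dendritic; Epi, epithelial), in CPM on log axes, for CEP and Vehicle, with exact Poisson 95% intervals for counting error. Isg15, Rsad2, Slfn4 and Slfn1 are highest in the neutrophil gate, and in the dendritic gate the CEP points of Isg15, Rsad2, Usp18 and Ifi27l2a lie above the Vehicle points.

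In macrophages the members were slightly lower in CEP. All 40 were measured, 37 had a ratio below 0, and the median log2 ratio was -0.22, beside 0.02 over all 12284 measured genes. Past the limit, 13 were lower, against a background of 4.69%, and 1 was higher, against 9.08%. Summed over the 40 genes, the level was 3804 CPM (3785 to 3822) in CEP and 4084 CPM (4066 to 4101) in Vehicle. The log2 ratio of these sums was -0.10 (-0.11 to -0.09). The sum is dominated by Ifi27l2a, at 59193 and 65762 UMIs, whose ratio was 0.12.

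The antiviral effector Rsad2 (viperin, which makes a chain-terminating nucleotide) had 1960 UMIs in CEP and 3314 in Vehicle macrophages, or 45.1 and 63.0 CPM, a ratio of -0.48 (-0.56 to -0.40). Cmpk2, a mitochondrial nucleotide kinase and the neighbour of Rsad2, was at 7.82 and 10.0 CPM (-0.36), and the receptor-trafficking protein Rtp4 at 64.1 and 81.9 CPM (-0.35). Among the IFIT genes, whose proteins bind foreign RNA ends, Ifit1 stood at 11.5 and 15.6 CPM (-0.44, -0.60 to -0.28) and Ifit2 had 1637 and 2630 UMIs (-0.41). Ifit3, the partner of Ifit1, was within the limit at 20.3 and 22.9 CPM (-0.17). For Rsad2, Cmpk2, Rtp4, Ifit1 and Ifit2 the counting interval lay below 0, and the share of cells with a UMI moved the same way, from 13.2% of Vehicle to 9.85% of CEP cells for Rsad2.

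The p200 genes, which encode nuclear DNA-binding proteins, held the macrophage member with the lowest ratio. Ifi205 had 283 and 548 UMIs (6.51 and 10.4 CPM, -0.68, -0.89 to -0.47), Ifi209 613 and 1008 UMIs (14.1 and 19.2 CPM, -0.44) and Ifi211 833 and 1298 UMIs (19.2 and 24.7 CPM, -0.37). The p200 genes with more UMIs, Ifi203 (2645 and 3451, -0.11) and Ifi204 (1833 and 2483, -0.16), were within the limit. Phf11d, a zinc finger protein, stood at 25.1 and 35.5 CPM (-0.50). Isg15, its deconjugating enzyme Usp18 and the Oas genes were lower by less than the limit, with Isg15 at -0.18, Usp18 at 23.7 and 29.0 CPM (-0.29) and the 6 Oas genes between Oas1a at -0.32 and Oas3 at -0.07. Slfn4 was the member past the limit in the other direction, with 470 and 381 UMIs (10.8 and 7.25 CPM, 0.58, 0.38 to 0.78). With all deposited barcodes it stood at 0.19, within the limit. The neutrophil markers were at 611 and 530 CPM in this gate, and their part in the Slfn4 value was not tested.

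The macrophage difference was small enough to depend on how cells were weighted. With each cell given equal weight the median was -0.14 and 7 members were lower, and with each cell thinned to 1000 UMIs the median was -0.09, 8 were lower and Ifit2 stood at 0.05. The shares of all genes past the limit under these settings are not given, so these counts have no background. In these thinned cells, a macrophage with at least 5 member UMIs was as common in CEP (32.4%, 30.9 to 33.8%) as in Vehicle (33.4%, 32.1 to 34.8%) within counting error, with 1020 and 1201 cells within 1 UMI of that limit. Median depth was 9738 UMIs in CEP and 10880 in Vehicle macrophages, and its part in the result was not tested beyond the thinning.

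**Figure D3:**
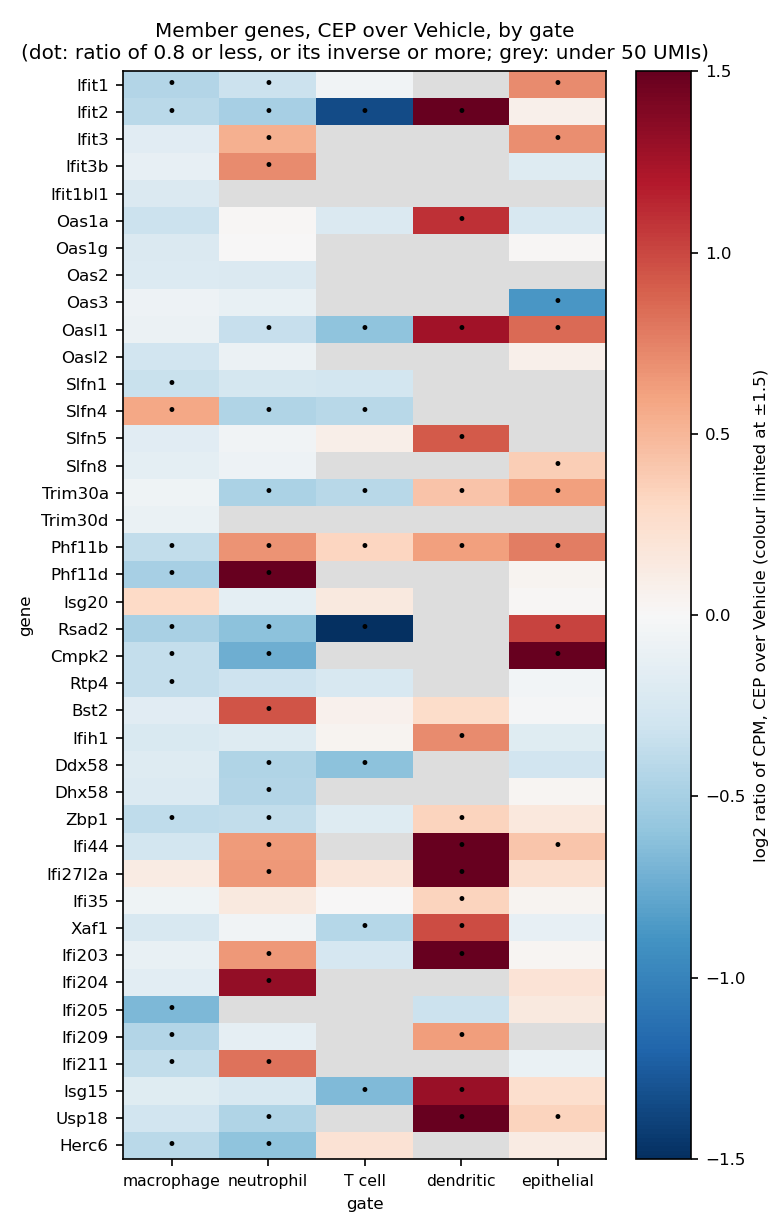
Log2 ratio of CPM, CEP over Vehicle, for the 40 members (rows) in the 5 gates (columns), with blue lower and red higher in CEP. Dots mark members past a CPM ratio of 0.8 or its inverse and grey marks under 50 UMIs in the gate. The macrophage column is mostly pale blue, the neutrophil and T cell columns are mixed, and the dendritic column has dots for 16 of its 18 measured members, all of them red.

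In neutrophils members were called in both directions, and only the lower calls were more common than among all genes. Of 37 measured members, 12 were lower (background 8.14%) and 10 were higher (background 31.4%). The median ratio was -0.14, beside 0.09 over 8011 genes, and the summed level was 5760 CPM (5690 to 5830) in CEP and 6416 CPM (6350 to 6483) in Vehicle. The log2 ratio of these sums was -0.16 (-0.18 to -0.13). The count of higher members is therefore close to what all genes showed in this gate, while the count of lower members, 32.4%, is above it. Ifit1bl1, Trim30d and Ifi205 had 22 to 43 UMIs and were not measured.

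The lower group held antiviral effectors, sensors and genes of the Isg15 system. Cmpk2 had 156 UMIs in CEP and 322 in Vehicle (34.6 and 57.6 CPM, -0.73, -1.02 to -0.45), and Rsad2 had 1191 and 2262 (264 and 405 CPM, -0.61, -0.72 to -0.51). Herc6, the enzyme that attaches Isg15 in mice, stood at 42.0 and 63.7 CPM (-0.60) and Usp18 at 48.2 and 65.9 CPM (-0.45). Isg15 itself, with the most UMIs of the set in this gate, was within the limit at -0.25 (-0.29 to -0.20).

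Ifit2 had 208 and 364 UMIs (46.2 and 65.2 CPM, -0.50) and Ifit1 334 and 519 (74.1 and 92.9 CPM, -0.32). Trim30a, a tripartite motif protein, stood at 101 and 140 CPM (-0.47), and Ddx58 (RIG-I, a sensor of viral RNA) at 44.4 and 60.9 CPM (-0.45). The other sensors called lower were Zbp1, which binds Z-form nucleic acid, at -0.37 and Dhx58, a regulator of Ddx58, at -0.44 with an interval of -0.91 to 0.02. Of the 12 lower members, 11 had an interval wholly below 0.

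The higher member with most UMIs was Ifi27l2a, at 3300 and 2613 (733 and 468 CPM, 0.65). Phf11d had 67 and 18 UMIs (14.9 and 3.22 CPM, 2.18), Ifi204 97 and 48 (21.5 and 8.59 CPM, 1.32), Bst2 918 and 592 (204 and 106 CPM, 0.94) and Ifi211 50 and 35 (11.1 and 6.27 CPM, 0.82). Ifit3b, Phf11b and Ifit3 stood at 0.70, 0.68 and 0.53. Markers of other cell types were also higher in CEP in this gate. The 5 fibroblast markers summed to 1160 CPM in CEP and 8.95 CPM in Vehicle, with Dcn, Pdgfra and Lum at 0 UMIs in Vehicle, and the 7 epithelial markers to 339 and 53.9 CPM.

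Leaving out neutrophil-gate cells with 3 or more UMIs of other lineages left 1433 CEP and 1872 Vehicle cells, with 9 members lower (background 11.9%) and 2 higher (background 9.54%) of 30 measured, and brought the median of all genes to -0.01. Bst2 then stood at 0.05, Phf11d at 0.32 and Ifi211 at 0.37, while Ifi204 was at 1.77 and Phf11b at 0.66. In the lower group Cmpk2 remained at -0.71, Herc6 at -0.54, Usp18 at -0.51 and Rsad2 at -0.47. The stricter rule of no such UMI left 802 and 1083 cells, in which the summed ratio was 0.01, Isg15 stood at 0.06, Ifit2 at 0.03, Phf11d at -0.99 and Rsad2 at -0.31. Both rules were chosen after the values were seen.

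Single neutrophils differed widely in the members. In cells thinned to 1000 UMIs (237 CEP and 213 Vehicle cells were shallower and left out), the median cell held 4 member UMIs in both libraries, the 99th percentile cell held 46.9 in CEP and 44.1 in Vehicle, and the top 10% of cells held 42.6% and 40.1% of the member UMIs. Cells with at least 5 member UMIs were 43.5% (40.9 to 46.2%) of CEP and 47.8% (45.6 to 50.1%) of Vehicle neutrophils, with 266 and 379 cells within 1 UMI of the limit. Mean member UMIs in those cells were 13.5 and 13.6. The CEP share was lower, with counting intervals that overlapped, and the mean in these cells was close in both libraries.

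Rsad2 marked neutrophils in which most of the other members were raised together. A thinned neutrophil with an Rsad2 UMI was found in 169 of 1415 CEP cells (11.9%, 10.3 to 13.7%) and 291 of 1890 Vehicle cells (15.4%, 13.8 to 17.1%), and in unthinned cells in 15.1% and 19.7%. In the epithelial gate the thinned shares were 0.641% and 0 of 111, which allows a share of up to 2.70% if taken as 3 counts (exact upper limit 3.27%). Median depths before thinning were 1751 and 1840 UMIs in neutrophils and 26786 and 26694 in epithelial cells, and free RNA was not measured. The other 39 members summed to 19059 CPM in the CEP cells with Rsad2 and 4843 CPM in those without, and to 18168 and 4974 CPM in Vehicle.

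Gene by gene, 23 of 24 measured members in CEP and 24 of 26 in Vehicle were at least 2-fold higher in neutrophils with an Rsad2 UMI, against 3.77% and 3.19% of all genes. Cmpk2 stood at 337 CPM with Rsad2 and 8.03 CPM without in CEP, a fold of 42.0 (21.3 to 92.3), and at 357 and 14.4 CPM in Vehicle, a fold of 24.8 (15.7 to 40.9). Ifit2 was 26.1-fold and 35.9-fold higher, Usp18 18.7-fold and 11.0-fold, Ifit1 15.4-fold and 20.9-fold, and Isg15 4.35-fold and 4.13-fold. Slfn1 was the member under 2-fold in both libraries, at 1.78 (1.45 to 2.17) and 1.18 (0.986 to 1.41), and Ifi27l2a was under it in Vehicle, at 1.43. These folds are within a library and share its depth and free RNA.

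Macrophages with an Rsad2 UMI showed the same co-detection at a lower rate. They were 129 of 4131 CEP (3.12%, 2.61 to 3.70%) and 168 of 4537 Vehicle cells (3.70%, 3.17 to 4.29%), where the exact upper limit for 0 of 111 Vehicle epithelial cells was 3.27%. Of the members, 29 and 25 of 34 measured were at least 2-fold higher in them, against 5.45% and 4.03% of all genes. Ifit1 was 27.7-fold and 23.0-fold higher, Ifit3 22.3-fold and 12.8-fold, and Isg15 5.27-fold and 3.77-fold. Bst2 (1.86-fold and 1.43-fold) and Ifi27l2a (1.33-fold and 1.06-fold), the most abundant members besides Isg15, were under 2-fold.

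**Figure D4:**
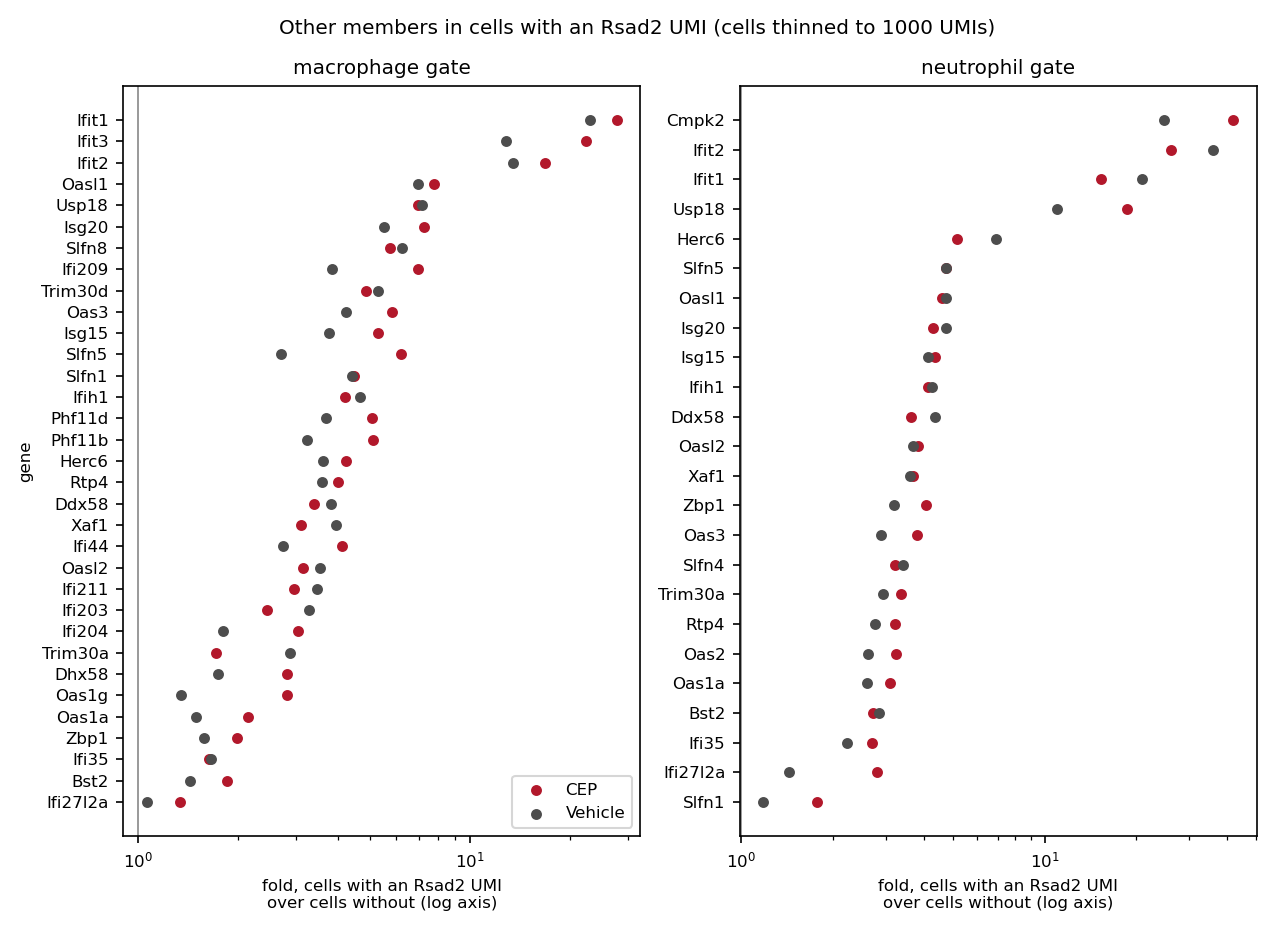
Fold difference in CPM of each other measured member between cells with and without an Rsad2 UMI, on a log axis, in macrophages and neutrophils thinned to 1000 UMIs, for CEP and Vehicle. Ifit1 and Ifit2 lie at over 10-fold in both cell types and libraries, as does Cmpk2 in neutrophils, and the lowest points are Ifi27l2a in macrophages and Slfn1 in neutrophils.

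In the dendritic gate the members were higher in CEP. Of the 40 genes, 36 had a ratio above 0, including 19 of the 22 that had under 50 UMIs, and the summed level was 3615 CPM (3493 to 3741) in CEP and 1972 CPM (1886 to 2062) in Vehicle. The log2 ratio of these sums was 0.87 (0.79 to 0.96). Among the 18 measured members 16 were higher (background 15.4%) and none was lower (background 15.2%), with a median of 0.95 beside -0.01 over 4594 genes. A member could be measured through its CEP UMIs alone, so the count and median of the 18 lean upward. At an interval wholly above 0 there were 11. Markers of other cell types were also higher in CEP in this gate, with the 7 neutrophil markers at 526 and 259 CPM and the 5 monocyte markers at 622 and 445 CPM. The 7 T cell markers summed to 124 and 73.8 CPM, but in CEP 97 of their 113 UMIs were Il7r. In Vehicle 6 of the 7 T cell markers had 0 UMIs. The part of the neutrophil, monocyte and T cell markers in the members' values was not tested.

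Isg15 had 566 UMIs in CEP and 251 in Vehicle dendritic cells (622 and 254 CPM, 1.29, 1.08 to 1.51) and Ifi27l2a had 680 and 242 (747 and 245 CPM, 1.61, 1.40 to 1.83). Ifit2 had 59 and 7 UMIs (64.8 and 7.08 CPM, 3.11, 2.06 to 4.57) and Usp18 67 and 18 (73.6 and 18.2 CPM, 1.99). Ifi203 of the p200 family stood at 1.90 and the interferon-induced Ifi44 at 1.82.
Under 50 UMIs, Rsad2 had 35 and 4 UMIs (38.5 and 4.04 CPM), Ifit3 15 and 3 and Ifit1 4 and 2. In the other direction Ifi205 was at 156 and 195 CPM (-0.32, within the limit), so the p200 genes did not move as 1 block.

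A few cells carried much of this difference. In CEP 4 cells held 1115 of the 3291 member UMIs (33.9%) and in Vehicle the top 4 held 361 of 1951 (18.5%). All 4 CEP cells had a UMI of Xcr1 or Clec9a, markers of cross-presenting conventional dendritic cells, against 1 of the 4 in Vehicle. Without the 5 cells with most member UMIs of each library the summed ratio was 0.50, 11 members were measured with a median of 0.23, and 4 were higher (background 15.5%) and 1 lower (background 15%). Isg15 then stood at 1.33, Ifit2 at 1.56, Ifi27l2a at 0.99 and Usp18 at 0.92. The median cell held 1577 CPM of members in CEP and 1338 CPM in Vehicle, and the 90th percentile cell 7925 and 4945 CPM.

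The dendritic gate pools cell kinds that differ in the members. Each cell was counted in 1 subset only, also where it met more than 1 of the rules below. Cells with Xcr1 or Clec9a (34 CEP and 41 Vehicle cells) held 4181 and 1560 CPM of members, a log2 ratio of 1.42 (1.30 to 1.54). The 4 CEP cells named above, all with such a UMI, held 1115 member UMIs, beside 1688 in this CEP subset. Its ratio may therefore rest on few cells, and the ratio without them is not given. Cells with at least 3 UMIs of Ccr7 and Ccl22, markers of mature dendritic cells (37 and 32 cells), held 2408 and 1772 CPM, a ratio of 0.44. Cells with at least 2 UMIs of Siglech, a plasmacytoid dendritic cell marker (8 and 6 cells), held more member RNA in Vehicle, 7169 against 8587 CPM (-0.26). So did cells with a UMI of Cd209a, a lectin of dendritic cells (3 and 7 cells), at 1732 against 2637 CPM (-0.60, -1.10 to -0.13). The 9 CEP and 8 Vehicle cells in none of these subsets held 3799 and 2195 CPM (0.79). In the gate as a whole, thinned cells with at least 5 member UMIs were 24.4% of CEP and 8.79% of Vehicle cells, from 22 of 90 and 8 of 91, with 11 and 7 cells within 1 UMI of the limit. These subsets and limits were set after the data were seen, and the animals behind so few cells are unknown.

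In the T cell gate no direction held. Of 22 measured members 8 were lower (background 16.9%) and 1 higher (background 17.3%), or 8 and 0 after subtracting the all-gene median, and the summed level was 3099 CPM in CEP and 3446 CPM in Vehicle (-0.15, -0.23 to -0.08). Rsad2 had 35 and 143 UMIs (40.9 and 139 CPM, -1.75), Ifit2 17 and 53 (-1.35), Isg15 282 and 536 (330 and 521 CPM, -0.66), Ddx58 22 and 41 (-0.62), Oasl1, which restrains Irf7 in mice, 20 and 37 (-0.61) and Xaf1 30 and 49 (-0.43). Phf11b was at 0.33, with an interval of -0.29 to 0.95, and 4 of the 8 lower members had an interval wholly below 0.

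The summed ratio of the T cell gate changed sign under several alternatives, given below. Among them was leaving out the 21 CEP and 28 Vehicle cells that also met another gate. Without these cells the summed ratio was 0.18, and Rsad2 stood at 1.51 and Isg15 at 0.22. Of 14 measured members 2 were then lower (background 18.3%) and 5 higher (background 15.6%). The neutrophil markers in the T cell gate, given above, were higher in Vehicle than in CEP, and Rsad2 and Isg15 had their highest levels in neutrophils. The part of neutrophil RNA in the T cell values was not tested. Ifit1 was at 37.4 and 38.9 CPM (-0.05) in the whole gate. The cells with an Rsad2 UMI numbered 2 of 158 and 4 of 244 after thinning.

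In the epithelial gate the members were near level. The summed level was 1805 CPM (1787 to 1823) in CEP and 1743 CPM (1697 to 1789) in Vehicle. The log2 ratio of these sums was 0.05 (0.01 to 0.09), and the median of 33 measured members was 0.08 beside -0.03 over 10733 genes. Of the 33, 10 were higher (background 10.7%) and 1 was lower (background 13.2%). The gate held 21973041 UMIs in CEP and 3191041 in Vehicle, so a member could be measured through its CEP UMIs alone. The interval lay wholly above 0 for 6 of the 10 and wholly below 0 for the 1 lower member. Cells of this gate should lack CD45 and were 780 in CEP and 111 in Vehicle, so the Vehicle values rest on few UMIs.

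Bst2, the most abundant member here, was at 728 and 738 CPM (-0.02, -0.08 to 0.04), and Isg15 at 208 and 174 CPM (0.25). The members with the highest ratios were rare. Cmpk2 had 89 UMIs in CEP and 3 in Vehicle (1.89, 0.51 to 4.41), Rsad2 104 and 7 (1.02, 0.02 to 2.46) and Oasl1 192 and 15 (0.85). Phf11b was at 0.77, Ifit1 at 12.6 and 7.52 CPM (0.71) and Ifit3 at 8.37 and 5.01 CPM (0.70), and Usp18 at 23.4 and 18.5 CPM (0.33). Oas3, a synthetase of the signal that activates RNase L, was lower at 5.19 and 9.40 CPM (-0.88, -1.45 to -0.23).

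Several of these values differed before filters and doublet removal, which were not separated. With all 834 CEP and 133 Vehicle barcodes of the gate, the median was -0.15, the summed ratio -0.10, 9 members were lower (background 13.2%) and 4 higher (background 8.56%), and Cmpk2 stood at -0.57, Rsad2 at -0.48 and Ifit3 at -0.26. Oas3 was then at -1.20 and Oasl1 at 0.60. The neutrophil markers in this gate were 727 CPM in CEP and 1025 CPM in Vehicle, and their part in the members' values was not tested.

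**Figure D5:**
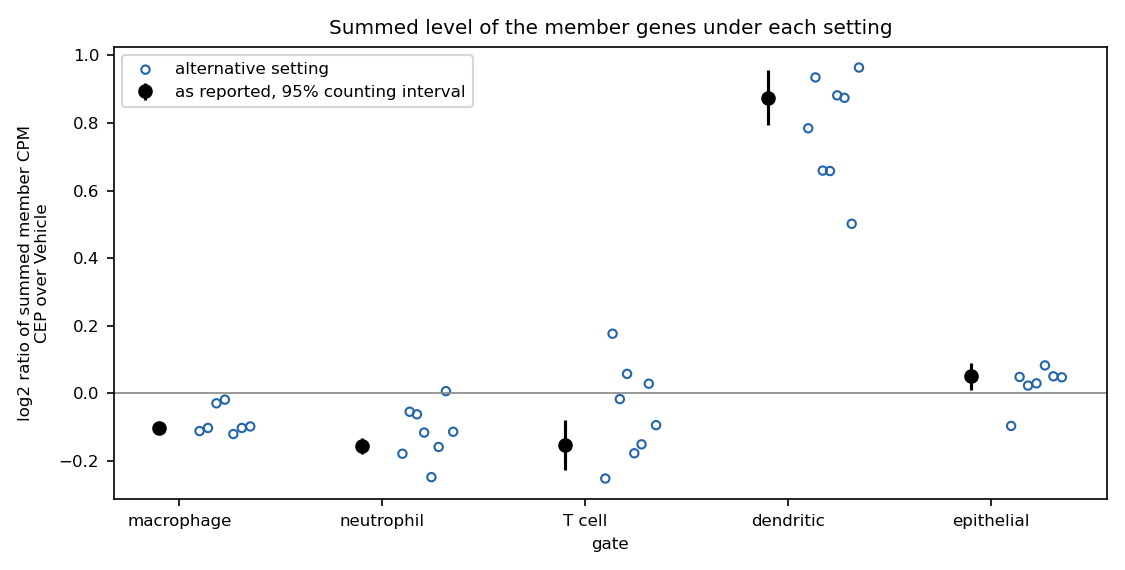
Log2 ratio of the summed member CPM, CEP over Vehicle, in each gate as reported (black, with its 95% counting interval) and under each alternative (open circles, 1 per setting). The dendritic circles lie at 0.50 or above, the macrophage circles lie below 0, and the neutrophil, T cell and epithelial circles fall on both sides of 0.

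Among the genes that make and relay the signal, ligands were scarce. Ifnb1 had 56 UMIs in CEP and 116 in Vehicle macrophages (1.29 and 2.21 CPM, -0.77, -1.26 to -0.30) and 0 UMIs in the neutrophil, T cell, dendritic and epithelial gates of both libraries. In the Vehicle dendritic gate (989234 UMIs) 0 UMIs allow up to 3.73 CPM, above the macrophage values. The CEP dendritic gate and the T cell gate held 855541 to 1028260 UMIs per library, so a level under that of macrophages was not shown in these gates. Of the interferon alpha genes, Ifna4 had 13 and 5 UMIs in macrophages, Ifna2 0 and 4, and Ifna14 1 and 1. Ifng, the ligand of the type II receptor, had 34 and 89 UMIs in the T cell gate (39.7 and 86.6 CPM, -1.11). In the macrophage gate it had 19 and 70 UMIs (0.437 and 1.33 CPM, -1.58). T cell markers summed to 46.2 and 42.3 CPM in the macrophage gate, and the part of T cell RNA in its Ifng value was not tested. Both ligands with 50 or more UMIs were lower in CEP where they were measured.

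The receptor genes Ifnar1 and Ifnar2 were within the limit in the macrophage, neutrophil, T cell and dendritic gates, with Ifnar1 at -0.03, -0.05, 0.27 and 0.29. In epithelial cells Ifnar2 was at 63.9 and 50.1 CPM (0.35). Irf7, which drives later interferon alpha production, was at 356 and 113 CPM in the dendritic gate (1.65) and within the limit in the other 4 gates.

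Irf1, an early target of interferon gamma, was lower in macrophages (-0.32), neutrophils (-0.65) and the T cell gate (-0.39) and level in the dendritic gate (159 and 160 CPM). The guanylate-binding proteins respond strongly to interferon gamma. Their medians were -0.42 over 10 genes in macrophages (7 lower, background 4.69%) and -0.67 over 7 in neutrophils (5 lower, background 8.14%). In the T cell gate, which also held neutrophil markers, the median was -0.60 over 8 (6 lower, background 16.9%). In the dendritic gate 3 were measured, with a median of -0.39 and 2 lower (background 15.2%), and the 10 genes summed to 199 and 193 CPM (0.04). In the epithelial gate the median was 0.29 over 10 genes, with 4 higher (background 10.7%). The MHC class II genes had a median of -0.39 in macrophages and -0.02 in the dendritic gate. These lists were chosen with earlier results of these data known, and their difference from the members was not tested.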

How the data were processed

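The deposited matrices hold UMI counts for each gene in each barcode, not normalized, per the file headers. Build mm10 and Cell Ranger 5.0.1 come from the submitters' processing notes, and the file headers give cellranger 7.1.0. The handling of intronic reads is not stated in the sources used here. Barcodes needed 200 genes or more and a mitochondrial share of 15% or less. Scrublet's automatic threshold marked 1 cell in each library, so barcodes scoring in the highest 8% were removed instead (702 CEP and 778 Vehicle). A total of 136 deposited barcodes were found in both libraries.

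Gates were set on raw UMIs, and a cell could meet more than 1 gate. UMIs were summed per gate and library and scaled to 1000000 UMIs. Log2 ratios had 0.5 UMI added to each sum. Shares carry exact Clopper-Pearson 95% intervals, which cover counting error, as do all intervals here. Cells were thinned at random to 1000 UMIs where shares were compared. The ratio calculation was tested on simulated data. Named in each gate were Isg15, Ifit1, Ifit3, Rsad2 and Usp18 and up to 6 members lower and 6 higher past the limit with at least 50 UMIs, by size of the ratio. Other members are named where a family, a sensor or a level is described, and those were chosen after their values were seen. The members, lists, markers and rules were chosen with earlier results of these data known.

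Markers of macrophages, neutrophils, T cells, dendritic cells, epithelial cells, plasmacytoid dendritic cells, monocytes, B cells, NK cells, red blood cells, fibroblasts and endothelial cells were summed in each gate. Monocyte markers stood at 653 and 839 CPM in CEP and Vehicle neutrophils, plasmacytoid markers at 1646 and 1779 CPM in the dendritic gate, and NK markers at 792 and 476 CPM in the T cell gate. The NK sums were nearly all Gzma, with 669 of 678 UMIs in CEP and 479 of 489 in Vehicle. Klrb1c and Klra8 had 0 UMIs in the T cell gate of both libraries. B cell and endothelial markers were at most 39.4 CPM in any gate.

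Promoter windows (250 bases before to 50 after the start) came from RefSeq, build GRCm38.p6, and the motif was searched on both strands with overlaps allowed. Alternatives changed the cells, weighting, thinning, UMI minimum and centring. Scripts ran in Python 3.11.15, with matplotlib 3.10.9 for plots, scanpy 1.11.5, scipy 1.17.1, pandas 2.3.3 and numpy 2.4.6. Results on 1 gene of the pathway are not reported here.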

Additional observations from a re-analysis of the deposited data

Results flagged for a closer look

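Members are listed here because they were called lower in 1 gate and higher in another, with counting intervals that left out 0 on both sides. Values are log2 ratios of CEP over Vehicle. The difference between gates was not tested for any of them, since each group is 1 library.

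Isg15 stood at -0.66 in the T cell gate and 1.29 in the dendritic gate. Usp18 stood at -0.45 in neutrophils and 1.99 in the dendritic gate. Ifit2 was at -0.41 in macrophages, -0.50 in neutrophils and -1.35 in the T cell gate, against 3.11 in the dendritic gate. Ifit1 was at -0.44 in macrophages and -0.32 in neutrophils, against 0.71 in the epithelial gate.

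Rsad2 was at -0.48 in macrophages, -0.61 in neutrophils and -1.75 in the T cell gate, against 1.02 in the epithelial gate. Its neighbour Cmpk2 had the same signs, at -0.36 in macrophages, -0.73 in neutrophils and 1.89 in the epithelial gate. Oasl1 was at -0.35 in neutrophils, 1.26 in the dendritic gate and 0.85 in the epithelial gate.

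Slfn4 was at -0.45 in neutrophils and -0.42 in the T cell gate, against 0.58 in macrophages. Ifi211 was at -0.37 in macrophages and 0.82 in neutrophils. Phf11b was at -0.36 in macrophages, 0.68 in neutrophils and 0.62 in the dendritic gate, and Phf11d at -0.50 in macrophages and 2.18 in neutrophils. Under an alternative given in the next part, the sign changed for Ifit2 in macrophages, for Ifit2, Ifi211 and Phf11d in neutrophils, for Rsad2, Isg15 and Ifit2 in the T cell gate, and for Rsad2 and Cmpk2 in the epithelial gate. Slfn4 in macrophages was at 0.19, within the limit, with all deposited barcodes.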

How the results depend on the processing

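No paired analysis was possible because each group is 1 library. Depth limits the T cell and dendritic gates most, where 18 and 22 of the 40 members had under 50 UMIs. Of 197 alternative values for medians, sums, counts and shares, 127 kept their direction and stayed within the counting interval or 1.5 times the count, 63 moved and 7 changed sign. The cause of each change was not tested. Unless an earlier part gives a background, counts of lower and higher members here stand without the share of all genes under that setting. Such counts show how the calls moved and are not read as results about the members.

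With each cell given equal weight, the median was -0.14 in macrophages, and summed ratios were -0.030 (macrophage), -0.062 (neutrophil), -0.017 (T cell) and 0.66 (dendritic). Lower members then numbered 7, 5 and 4 in the macrophage, T cell and epithelial gates and higher members 4 in the T cell gate. Oasl1 was at 0.48 in the T cell gate and Phf11b at -0.75 in the epithelial gate. With cells thinned to 1000 UMIs, medians were -0.088 (macrophage), 0.10 (T cell) and -0.049 (epithelial), and sums -0.019 (macrophage), -0.12 (neutrophil), 0.057 (T cell) and 0.66 (dendritic). Thinning, which leaves fewer genes measured, gave 8, 1 and 2 lower members in the macrophage, T cell and epithelial gates, and 2, 1, 0, 2 and 1 higher members in the macrophage, neutrophil, T cell, dendritic and epithelial gates. Ifit2 was at 0.049 in macrophages and 0.10 in the T cell gate, and Oasl1 at 0.83 in the T cell gate.

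Less the all-gene median, sums were -0.12 (macrophage) and -0.25 (neutrophil), with 0 higher members in the T cell gate. With at least 200 UMIs per gene, 3, 0 and 4 members were higher in the neutrophil, T cell and dendritic gates, and 2 and 0 were lower in the T cell and epithelial gates. With at least 1 UMI, 17, 2 and 5 were lower in the T cell, dendritic and epithelial gates, and 6 and 34 were higher in the T cell and dendritic gates. At 10 member UMIs per thinned cell, the log2 ratio of the share of such cells was 0.064 (macrophage) and -1.59 (epithelial), and at 3 it was 0.20 (dendritic), against -0.05, -0.36 and 1.48 at 5.

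With all deposited barcodes, 13, 1 and 9 members were lower in the T cell, dendritic and epithelial gates, and 0 and 4 higher in the T cell and epithelial gates. Sums were -0.25 (T cell), 0.78 (dendritic) and -0.10 (epithelial), and the epithelial median was -0.15, with Cmpk2 at -0.57, Rsad2 at -0.48, Ifit3 at -0.26 and Usp18 at -0.10. With cells in exactly 1 gate, sums were -0.055 (neutrophil) and 0.18 (T cell) and the T cell median 0.14, with 2 lower and 5 higher members there and 1 lower in the dendritic gate. Rsad2 was at 1.51, Isg15 at 0.22 and Oasl1 at 0.080 in these T cells.

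The following were chosen after seeing the data. Without cells with a UMI of another lineage, 7 and 3 members were lower and 3 and 3 higher in the neutrophil and T cell gates, with sums of 0.0064 and 0.028. Neutrophil values were then 0.035 for Ifit2, -0.99 for Phf11d and -0.54 for Ifi211. Without cells with 3 or more such UMIs, 2 members were higher in neutrophils and the sum was -0.11. Without the 5 cells with most member UMIs of each library, the dendritic gate had a median of 0.23, a sum of 0.50, 1 lower and 4 higher members, and Oasl1 was at 0.49 in the T cell gate. Without cells with 2 or more Siglech UMIs, the dendritic sum was 0.96 with 1 lower member. Without cells with a Ptprc UMI, 3 members were lower in the epithelial gate.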

Other observations

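The immunity-related GTPases attack the membranes of vacuoles that hold pathogens and respond mainly to interferon gamma. In macrophages their median was -0.42 over 7 measured genes (5 lower past a CPM ratio of 0.8, background 4.69%). In neutrophils it was -0.66 over 5 (4 lower, background 8.14%). Their medians were -0.02 in the T cell gate over 4 genes, 0.18 in the dendritic gate over 3 and 0.08 in the epithelial gate over 8. Summed over the list, levels were 302 CPM in CEP and 464 CPM in Vehicle neutrophils.

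Sensors upstream of interferon production were mostly near level in macrophages, with Cgas, the sensor of cytosolic DNA, at 13.3 and 15.1 CPM (-0.18), Tmem173 (STING) at 74.1 and 80.6 CPM (-0.12) and Mavs, the adaptor of the RNA sensors, at 19.1 and 20.5 CPM (-0.11). Tlr9, an endosomal DNA sensor, was at 7.73 and 11.2 CPM (-0.53). In the dendritic gate Cgas had 16 UMIs in CEP and 5 in Vehicle and Tmem173 54 and 72 (-0.29).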
